A study of Homo sapiens with 6 samples.

Results

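Mucins are large glycoproteins built around stretches rich in serine, threonine and proline, to which many O-linked sugar chains are attached. The gel-forming mucins MUC2, MUC5AC and MUC5B are secreted and polymerize into mucus, MUC2 being the main mucin of the goblet cells of the colon, and MUC5AC and MUC5B those of the stomach and airways. The membrane mucins MUC1, MUC3A, MUC4, MUC12, MUC13, MUC16 and MUC17 stay anchored at the cell surface, where they form part of the glycocalyx of epithelial cells and take part in signalling. These 10 genes were picked by symbol from a table of 58735 genes, and all 10 were found once each.

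RNA was sequenced from 6 libraries whose labels give the human colorectal adenocarcinoma cell line SW480, 3 labelled as DDX39B overexpression and 3 as wild-type control. All were grown in the same medium, Leibovitz's with fetal bovine serum and without CO2, and differ by label only in DDX39B. DDX39B is an RNA helicase of mRNA export. The sources used here do not say how it was overexpressed, whether a clone or a pool was used, or whether the libraries of a group came from separate cultures, so p-values measure the spread between these libraries, which may be technical. Levels are given as FPKM, a read density scaled for gene length and library size, and reads were worked out from it, 16963075 to 17463697 per library.

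DDX39B itself ran counter to its labels, at 15.02, 13.87 and 14.03 FPKM in the libraries labelled overexpression and 39.3, 34.6 and 41.9 FPKM in those labelled control (log2 fold change -1.37, SE 0.079, limma adjusted p = 6.93e-06). Both groups are named by their labels for that reason, and every direction below is drawn from those labels. Of 12 markers of colon epithelium, 6 reached the level for testing and all 6 were higher under the overexpression label, where 37.5% of all genes tested were higher. CDX2, VIL1 and KRT19 averaged below 1 FPKM with the control label and reached the level for testing only through the other group. Their direction was thus fixed by the filter. Only EPCAM, KRT8 and KRT18, above 1 FPKM in every library, can be set against the share of all genes. KRT20, a keratin of differentiated colon cells, stayed below the level for testing. It went the other way, with 6 against 80 reads (14.2-fold lower, limma-voom adjusted p = 0.00172). The 12 markers together summed to 1962 to 1985 FPKM with the overexpression label and 357 to 430 FPKM with the control label. CDX1 had 0 reads in both groups, PHGR1 had 0 against 1, and CDX2 and GPA33 had 0 reads with the control label. Defining markers of the labelled tissue were thus missing from each group. Over genes averaging 1 FPKM or more, log2(FPKM + 1) correlated at 0.676 to 0.685 between libraries of different groups. Within a group the correlation was 0.974 to 0.991. Among 7 markers of basal and squamous epithelium, 3 keratins were abundant and differed between the groups, and the rest were low in both. The 7 summed to 717 to 787 FPKM with the overexpression label and 251 to 355 FPKM with the control label. The keratins KRT5 and KRT13 measured 579 ± 31 and 169 ± 4.3 FPKM against 0.380 ± 0.18 and 0.110 ± 0.030 FPKM (SD, n = 3 each). KRT17, another keratin of this list, ran the opposite way, at 1.21 ± 0.18 against 303 ± 51 FPKM (SD, n = 3 each), and all 3 passed the limma test. The low markers of this list were TP63, which ran with KRT17 at 2 against 242 reads, KRT14 (30 against 1), KRT6A (69 against 0) and DSG3 (3 against 1). Of the remaining lists, the 10 leukocyte markers summed to at most 2.49 FPKM, the 8 fibroblast markers to at most 8.28 FPKM, while the 7 endothelial markers reached 36.2 to 50.7 FPKM with the control label, 43.5 ± 7.4 FPKM of it from ESAM alone, with KDR at 0 reads. The part of these differences in the mucin results was not tested.

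The repeated stretches that carry the sugars can be read in the transcripts, and they matter here because a read inside a repeat can be placed at several positions of the same gene. The most frequent repeat unit of 4 members is printed from their longest GENCODE transcript, starting at an arbitrary base of the unit, to show how differently the mucins are built.
MUC1: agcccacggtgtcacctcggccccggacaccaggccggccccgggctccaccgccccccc
MUC2: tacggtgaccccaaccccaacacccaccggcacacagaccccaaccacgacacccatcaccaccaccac
MUC4: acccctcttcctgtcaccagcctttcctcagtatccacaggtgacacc
MUC5AC: ctcctacaaccagcacaacctctg
The unit of MUC1 was 60 bases long and occurred 19 times as an exact match, that of MUC2 69 bases and 9 times, that of MUC4 48 bases and 14 times, and that of MUC5AC 24 bases and 16 times. Of all stretches of 50 bases in the longest transcript, 61.5% in MUC12, 42.4% in MUC1, 29.2% in MUC5B and 28.3% in MUC4 occurred more than once within it, against 1.86% in MUC3A, 1.07% in MUC16 and 0% in MUC13. Sharing with other genes was small, at most 1.55% of the stretches (MUC17), and MUC5AC and MUC5B shared 0.379% and 0.370% of theirs with each other. The sources used here do not say how the authors' counting treated reads with several positions, so levels of the repeat-rich members are less certain than that of MUC13.

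MUC13, a membrane mucin of the gut epithelium with a short extracellular part, was the most abundant mucin of the list in all 6 libraries and fell most clearly under the overexpression label. It measured 10.7, 9.16 and 10.4 FPKM with the overexpression label and 197, 183 and 198 FPKM with the control label. Both groups were tight and far apart. Mean levels were 10.1 ± 0.82 and 193 ± 8.7 FPKM (SD, n = 3 each), 19.1-fold apart. On log2(FPKM + 1) the change was -4.13 (SE 0.070, limma adjusted p = 3.96e-08), resting on 1890 against 33677 reads. Among 19951 protein-coding genes ranked by mean FPKM, MUC13 stood at rank 135 in the control-labelled and rank 4254 in the overexpression-labelled group.

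MUC1, the widely expressed membrane mucin of glandular epithelia, was second in both groups and also fell. Its level was 1.02, 1.23 and 1.13 FPKM under the overexpression label and 12.6, 16.7 and 6.92 FPKM with the control label. The control-labelled libraries varied among themselves, yet the lowest of them was still above all 3 others. Mean levels were 1.13 ± 0.11 and 12.1 ± 4.9 FPKM (SD, n = 3 each), 10.7-fold apart (log2 fold change -2.55, SE 0.28, limma adjusted p = 1.53e-04), on 285 against 2846 reads. MUC13 and MUC1 were the only members whose 6-library mean reached 1 FPKM, the level set for the limma test, and both were lower. Of all 13972 genes tested, 39.3% were lower and 37.5% higher (76.8% in either direction), and values did not overlap between groups in 40.9% (lower) and 39.2% (higher), 80.1% in all, so a call in itself does not set a mucin apart. Both members lay above 1 FPKM in each of the 6 libraries. In bulk RNA, fewer cells expressing a gene and less RNA per cell cannot be told apart.

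**Figure D1:**
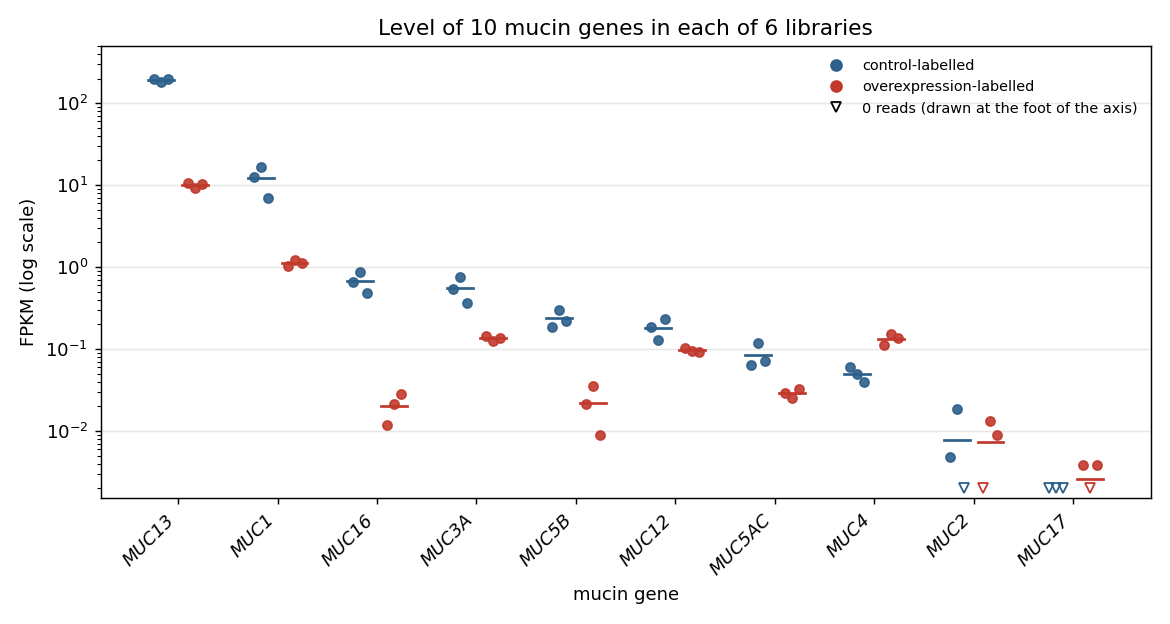
FPKM of the 10 mucin genes on a log scale, 1 point per library and a bar at the group mean, with libraries at 0 reads drawn as open triangles at the foot of the axis. The 3 control-labelled libraries lie above the 3 overexpression-labelled ones for 7 genes, MUC4 is placed the other way round, and MUC2 and MUC17 overlap.

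The other 8 members lay below 1 FPKM in every library. They were compared with voom, limma's model for read counts, applied to the reads worked out from the table, over 23252 genes with at least 10 reads in all 6 libraries together. Of these genes 31.8% were lower and 36.8% higher at an adjusted p of 0.05, 68.6% in either direction. Of the 10 mucins 9 entered, and 7 were lower and 1 was higher. Values did not overlap between groups in the same 7 and 1 genes, against 34.0% lower and 38.3% higher (72.3% in all) of the genes entered.

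Among the low membrane mucins, MUC16, a very large glycoprotein known from ovarian cancer and the ocular surface, differed most. It measured 0.0116, 0.0215 and 0.0281 FPKM with the overexpression label and 0.666, 0.875 and 0.481 FPKM with the control label. Every control-labelled value was many times the highest of the others. The ratio of the means, 0.0204 ± 0.0083 against 0.674 ± 0.20 FPKM (SD, n = 3 each), was 33.0-fold, with a voom log2 fold change of -5.05 (SE 0.53, limma-voom adjusted p = 3.24e-05), on 48 against 1476 reads. By level MUC16 held rank 3 of the list with the control label, where its range overlapped that of MUC3A, and rank 8 with the overexpression label.

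MUC3A and MUC12, membrane mucins of the intestinal brush border, were lower by smaller margins. MUC3A measured 0.145, 0.127 and 0.138 FPKM against 0.545, 0.7501 and 0.368 FPKM with the control label, and was 4.07-fold lower (83 against 315 reads, voom log2 fold change -1.95, SE 0.33, limma-voom adjusted p = 6.80e-04). Its lowest value with the control label lay above all 3 others. MUC12 measured 0.103, 0.0937 and 0.0915 FPKM against 0.186, 0.128 and 0.230 FPKM, and was 1.89-fold lower (88 against 155 reads, voom log2 fold change -0.87, SE 0.27, limma-voom adjusted p = 0.0165). The groups came close for MUC12, and its call was lost without overexpression-labelled replicate 2 or 3 (adjusted p = 0.0543 and 0.0559). A gene on the opposite strand inside MUC12, AC105446.1, had 81 reads with the overexpression label and 23 with the control label, and without known strand handling the reads of the pair cannot be parted with certainty.

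MUC17, their neighbour and another brush border mucin, was near the limit of detection. It had 1, 0 and 1 reads with the overexpression label and 0 in each library with the control label. A count of 0 in 3 libraries allows up to 0.00412 FPKM, so no difference was detectable at this depth. The limit, like all intervals from reads, covers counting error only.

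MUC4, a membrane mucin that binds the receptor ERBB2, was the 1 member higher under the overexpression label. It measured 0.112, 0.151 and 0.136 FPKM there and 0.0604, 0.05001 and 0.0392 FPKM with the control label. The groups did not overlap. The 2.66-fold difference rested on 152 against 53 reads over a gene model of 21325 bases, with a voom log2 fold change of 1.40 (SE 0.26, limma-voom adjusted p = 1.23e-03). MUC4 thus stood next to MUC3A in the overexpression-labelled group, with overlapping ranges, and below all membrane mucins except MUC17 in the control-labelled one.

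Of the secreted mucins, MUC5B was the one with a sizeable difference. It measured 0.0213, 0.0357 and 0.00903 FPKM with the overexpression label and 0.188, 0.299 and 0.222 FPKM with the control label. The ratio of the means was 10.7-fold, on 22 against 220 reads (voom log2 fold change -3.49, SE 0.465, limma-voom adjusted p = 1.50e-04). MUC5AC measured 0.0293, 0.0254 and 0.0321 FPKM against 0.0633, 0.119 and 0.0719 FPKM, with 27 against 74 reads, and was 2.93-fold lower (voom log2 fold change -1.46, SE 0.365, limma-voom adjusted p = 6.31e-03). With no filter on low values, limma on log2(FPKM + 1) gave MUC5AC an adjusted p of 0.075 and MUC12 one of 0.0878, whereas the other 6 members called by voom passed there too. In that fit 20.5% of 33913 genes were lower and 24.0% higher, 44.5% in either direction.

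MUC2, the defining mucin of colonic goblet cells, was almost absent from both groups. It had 0, 3 and 2 reads with the overexpression label and 1, 4 and 0 reads with the control label, in a gene model of 12667 bases. The groups overlapped, and the 95% interval of the voom log2 fold change reached from -2.31 to 2.36 (limma-voom adjusted p = 0.984), so this depth cannot tell a several-fold difference from none.

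**Figure D2:**
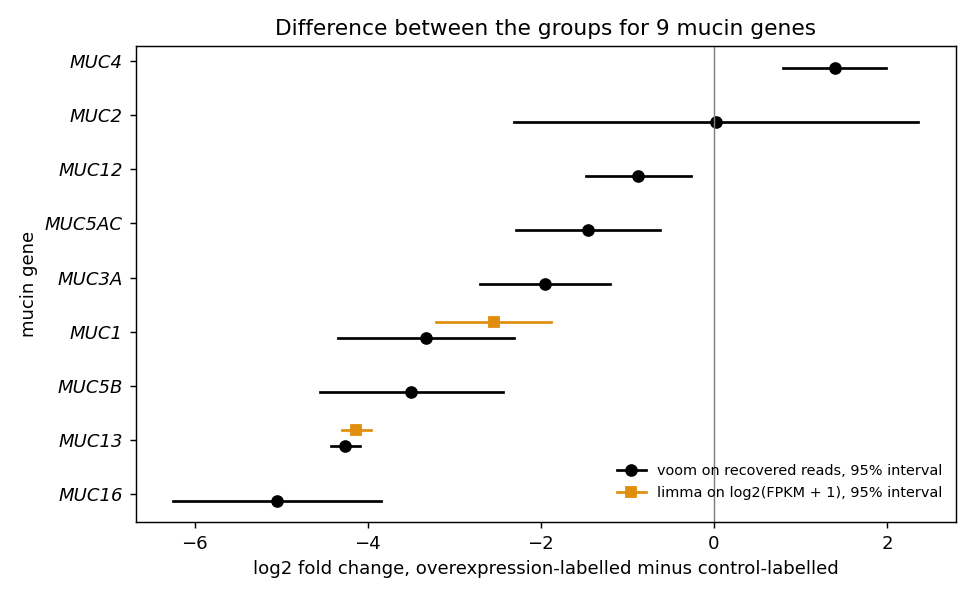
Log2 fold change of 9 mucin genes, overexpression-labelled minus control-labelled, with 95% intervals from voom on the recovered reads (circles) and, for the 2 genes tested on the FPKM scale, from limma on log2(FPKM + 1) (squares). MUC4 lies at 1.40, MUC2 spans 0, and the other 7 lie between -0.87 and -5.05.

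From highest to lowest, the order with the control label was MUC13, MUC1, MUC16, MUC3A, MUC5B, MUC12, MUC5AC, MUC4, MUC2 and MUC17, where MUC16 and MUC3A, MUC5B and MUC12, and MUC2 and MUC17 overlapped. With the overexpression label it was MUC13, MUC1, MUC3A, MUC4, MUC12, MUC5AC, MUC5B, MUC16, MUC2 and MUC17, where MUC3A overlapped MUC4 and each member from MUC5AC onwards overlapped the next.

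As a family, mucin expression was mostly MUC13. The FPKM of the 10 members summed to 202 to 212 with the control label and 10.9 to 12.1 with the overexpression label, and MUC13 made up 90.6% to 96.0% and 84.4% to 88.1% of that sum. The 8 low members together had 593 to 979 reads per control-labelled and 128 to 153 reads per overexpression-labelled library. The control-labelled libraries did not vary alike for all members. Replicate 2 held the highest level of MUC1, MUC2, MUC3A, MUC5AC, MUC5B and MUC16, but the lowest of MUC12 and MUC13. Replicate 3 held the lowest of MUC1, MUC2, MUC3A, MUC4 and MUC16. The same libraries differed from each other over all genes too, with a mean chi-square per gene of 8.08 to 36.9 between pairs of control-labelled libraries and 2.19 to 2.56 between pairs of overexpression-labelled ones, where sampling noise alone gives about 1.

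The genome position of the members shows which of these differences were shared with the genes beside them (coordinates of the table, which are those of GRCh38). MUC13 lies on chromosome 3 (124905442 to 124953819, minus strand) between the integrin gene ITGB5 and HEG1, itself a heavily glycosylated membrane protein. ITGB5 was higher under the overexpression label, at 139 ± 3.6 against 31.03 ± 2.8 FPKM (SD, n = 3 each, 4.48-fold), and so was HEG1, at 11.7 ± 1.1 against 8.92 ± 0.79 FPKM (limma adjusted p = 6.14e-07 and 8.73e-03). MUC13 thus moved against both flanking genes, which start or end 4024 and 11891 bases away.

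MUC1 (chromosome 1, 155185824 to 155192916, minus strand) lies between genes that were lower as well. THBS3, a thrombospondin gene 2672 bases away, measured 1.34 ± 0.075 FPKM against 9.06 ± 0.78 FPKM (SD, n = 3 each) and was 6.74-fold lower (limma adjusted p = 8.17e-07). TRIM46, 853 bases away on the other side, stayed below the level for the limma test, at 0.288, 0.366 and 0.408 FPKM against 1.08, 0.837 and 0.857 FPKM. By voom it was lower, on 86 against 209 reads (log2 fold change -1.38, SE 0.22, limma-voom adjusted p = 5.12e-04). A gene model that overlaps MUC1 on the same strand, AL713999.1, had 0 reads in all 6 libraries.

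MUC4 (chromosome 3, 195746765 to 195812277, minus strand) has a neighbour that was higher as well. The kinase gene TNK2 measured 17.5 ± 0.68 against 4.31 ± 0.17 FPKM (SD, n = 3 each, 4.05-fold, limma adjusted p = 4.45e-07). MUC20, a small membrane mucin gene 5642 bases away, had 21 against 3 reads, a ratio of 6.50 with a 95% counting interval of 1.94 to 34.03.

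The secreted mucins form a cluster on chromosome 11 in the order MUC6, MUC2, MUC5AC and MUC5B, from MUC2 at 1074875 to the end of MUC5B at 1262172 on the plus strand. Within it the level under the control label was highest at the MUC5B end. TOLLIP, 12199 bases beyond MUC5B, went the other way, at 9.79 ± 0.20 against 4.52 ± 1.1 FPKM (SD, n = 3 each, limma adjusted p = 8.83e-04). MUC6, a gastric mucin at the other end, had 16 reads with the overexpression label and 11 with the control label, with overlapping values.

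MUC3A, MUC12 and MUC17 lie in a row on the plus strand of chromosome 7 between 100949555 and 101058745, with 1277 and 1123 bases between them. The nearest gene beyond MUC17, TRIM56, was higher under the overexpression label. It measured 24.9 ± 0.76 against 15.6 ± 0.97 FPKM (SD, n = 3 each, limma adjusted p = 7.22e-05). On the other side ACHE, the acetylcholinesterase gene, was below the level for the limma test, with 125 against 11 reads. By voom it was higher (log2 fold change 3.30, SE 0.39, limma-voom adjusted p = 7.21e-05). Neither flank shared the direction of MUC3A and MUC12. MUC16 stands alone on chromosome 19 (8848844 to 8981342, minus strand), beside MBD3L1 and an olfactory receptor gene, OR1M1, which had at most 2 reads in a group.

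**Figure D3:**
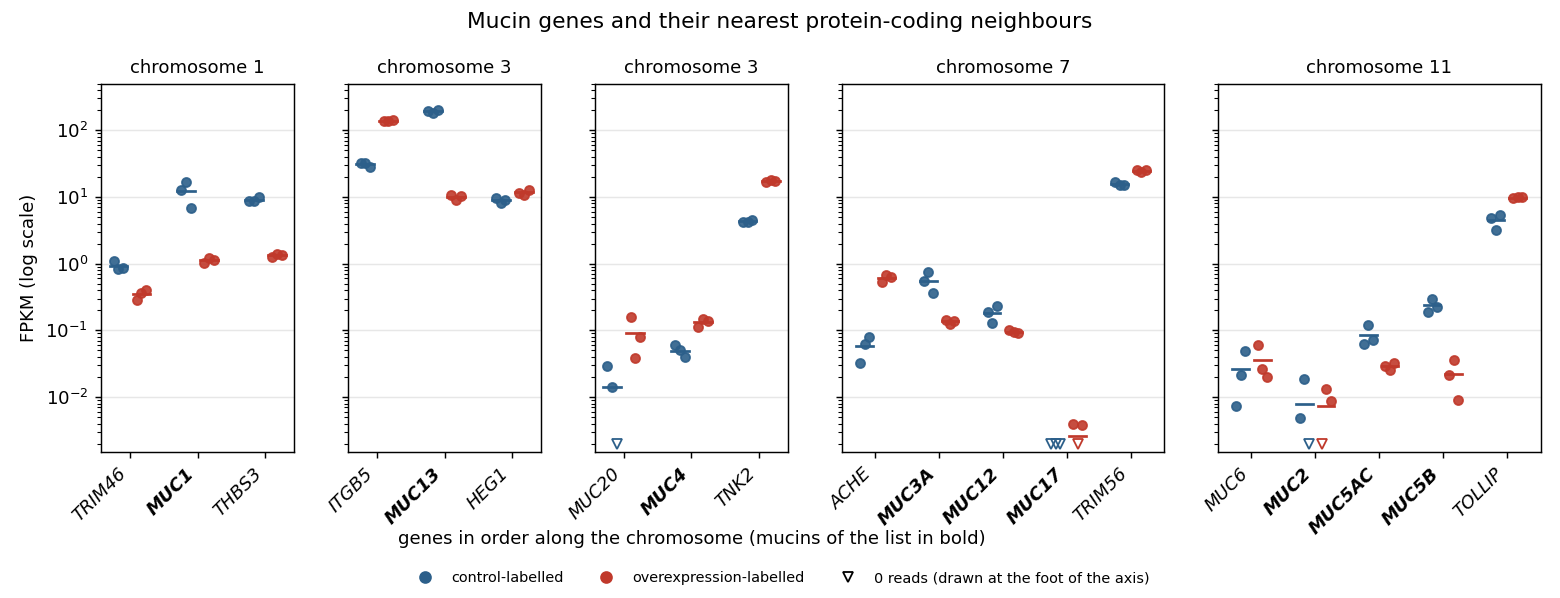
FPKM on a log scale of mucin genes (bold) and their nearest protein-coding neighbours in order along 3 regions of chromosomes 1 and 3, and along chromosomes 7 and 11, with 1 point per library and a bar at the group mean. MUC13 is lower in red while both neighbours are higher, MUC1 is lower together with THBS3, and MUC4 is higher together with TNK2.

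The start regions of MUC13, MUC1 and MUC4 are printed because MUC13 and MUC1 are the most abundant members and MUC4 is the one that was higher. Each runs from 250 bases before to 50 after a RefSeq start on GRCh38.p14, on the gene's own strand. Capitals mark the motifs, which were searched on both strands. The letters TTTATG are a type bound by CDX factors, and so are the letters TTTACG. The letters AGATAA are of the type bound by the factors GATA4 and GATA6, and GGGCGG is the box bound by SP1. The letters TGACTCA are bound by the AP-1 family, and CAAAG is a core shared by sites of TCF and HNF4 factors.
MUC13 (chr3:124934702-124935001, minus strand): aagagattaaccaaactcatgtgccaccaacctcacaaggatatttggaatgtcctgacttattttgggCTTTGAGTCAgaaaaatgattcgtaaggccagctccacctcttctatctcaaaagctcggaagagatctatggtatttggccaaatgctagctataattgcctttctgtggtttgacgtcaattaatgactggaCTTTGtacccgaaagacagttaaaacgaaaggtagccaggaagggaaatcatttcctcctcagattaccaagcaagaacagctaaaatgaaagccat
MUC1 (chr1:155192866-155193165, minus strand): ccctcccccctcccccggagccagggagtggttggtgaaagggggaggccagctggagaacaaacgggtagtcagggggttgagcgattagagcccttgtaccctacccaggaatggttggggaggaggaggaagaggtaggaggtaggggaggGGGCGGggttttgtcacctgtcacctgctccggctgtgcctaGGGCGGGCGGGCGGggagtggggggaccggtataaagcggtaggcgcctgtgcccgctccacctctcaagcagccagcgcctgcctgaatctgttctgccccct
MUC4 (chr3:195811880-195812179, minus strand): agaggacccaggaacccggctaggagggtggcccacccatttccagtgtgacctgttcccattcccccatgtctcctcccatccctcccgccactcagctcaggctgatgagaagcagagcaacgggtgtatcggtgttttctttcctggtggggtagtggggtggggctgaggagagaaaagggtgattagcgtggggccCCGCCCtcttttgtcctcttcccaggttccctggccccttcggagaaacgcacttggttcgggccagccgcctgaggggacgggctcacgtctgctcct
The MUC13 region held CAAAG at 181 and 47 bases before the start and TGACTCA at 178, the first CAAAG match overlapping TGACTCA, and no GC box. Its GC content of 41.0% was low: 13% of all 35116 promoter windows had less, the median being 58.7%. The MUC1 region had 65.7% GC and 4 GC boxes, 3 of them overlapping, and the MUC4 region had 62.0% GC and 1. Over all windows, 45% held GGGCGG, 47.5% CAAAG, 4.95% TGACTCA, 10.6% TTTATG, 3.12% TTTACG and 10.3% AGATAA. A RefSeq window was found for 8 members, not for MUC5AC and MUC5B. The RefSeq start of MUC13 lies inside the gene span of the table. A match is a description of letters and not a bound site.

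The gel-forming mucins of the gut are driven by goblet cell factors such as ATOH1 and SPDEF, and intestinal factors such as CDX2 and HNF4A regulate mucin genes too. The further lists were read from the same limma fit, in which the median log2 fold change over all genes was -0.03. In that fit 37.5% of all genes tested were higher and 39.3% lower, 76.8% in either direction. No such share is at hand for the other scalings given below. Of 5 tested goblet cell transcription factors (9 listed), 2 were higher, 2 lower and 1 did not pass, with a median log2 fold change of 0.18. With FPKM recomputed on the sum of the reads 3 were higher and 2 lower. GFI1 and FOXA3 averaged below 1 FPKM with the control label, and SPDEF had 0 reads with the overexpression label. Each reached the level for testing only through the other group, so its direction was fixed by the filter. KLF4, a factor of goblet cell maturation, fell 6.22-fold, from 33.4 ± 2.3 to 5.37 ± 0.029 FPKM (SD, n = 3 each). SPDEF, which promotes goblet cell secretory genes, had 385 reads with the control label and 0 with the overexpression label, and was at least 138-fold lower, taking 3 reads for the whole group as the floor. GFI1, a repressor in the secretory lineage, was 10.6-fold higher. ATOH1, which starts that lineage, had 0 reads against 1.

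Of 7 tested intestinal regulators (11 listed), 2 were higher (37.5% of all genes) and 5 lower (39.3%), with a median of -0.57. With FPKM recomputed on the sum of the reads 2 were higher and 4 lower, the call of KLF5 being lost (adjusted p = 0.116). CDX2 and HNF4A averaged below 1 FPKM with the control label, and GATA6 below 1 FPKM with the overexpression label. Each reached the level for testing only through the other group, so its direction was fixed by the filter. CDX2, the homeobox factor of intestinal identity, had 1059 reads under the overexpression label and 0 with the control label, and was at least 329-fold higher. HNF4A, a nuclear receptor of enterocytes, rose 8.16-fold, from 0.703 ± 0.32 to 5.74 ± 0.097 FPKM (SD, n = 3 each). ELF3, an epithelial ETS factor, fell 5.51-fold, and KLF5, the most abundant of the list, measured 32.1 ± 0.94 FPKM against 37.7 ± 2.0 FPKM. GATA6, a zinc finger factor of gut epithelium, fell 119-fold, with 5 against 555 reads. HNF4G, a relative of HNF4A below the level for testing, had 42 against 422 reads. The list thus held genes that ran with MUC13 and genes that ran against it.

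Goblet cell products were scarce in both groups. Of 17 listed genes 1 was tested, and it was higher: KLK1, a tissue kallikrein, at 8.03 ± 1.1 against 1.44 ± 0.19 FPKM (SD, n = 3 each, limma adjusted p = 6.51e-06). The disulfide isomerase AGR2, which helps fold mucins, its relative AGR3, the lectin ITLN1, CLCA1, RETNLB and ST6GALNAC1 had 0 reads in all 6 libraries. Below the level for testing, TFF2 had 71 reads with the overexpression label against 3 with the control label. TFF3 had 61 against 0, REP15 77 against 0, FCGBP 63 against 9 and BEST2 40 against 5. ZG16 ran the other way, with 0 against 14. Rescaled to TPM, 4 of these products were tested and all 4 were higher. Products with so few reads under the control label can reach the level for testing only through the other group. Apart from KLK1 their direction was thus fixed by the filter.

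Sugar chains are started on mucins by the GALNT transferases. Of 9 tested (18 listed), 5 were higher (37.5% of all genes), 2 lower (39.3%) and 2 did not pass, with a median of 0.83. GALNT3, GALNT6 and GALNT18 averaged below 1 FPKM with the control label and reached the level for testing only through the other group. Their higher direction was thus fixed by the filter, and the median includes them. GALNT6 rose from nearly nothing to the leading place, at 20.7, 17.8 and 18.5 FPKM against 0.00835, 0.00806 and 0.0244 FPKM, on 7467 against 5 reads (limma adjusted p = 3.99e-08). GALNT18 was 88.7-fold higher. GALNT1, a broadly active transferase and the most abundant one with the control label, fell 7.37-fold, from 30.7 ± 3.6 to 4.17 ± 0.19 FPKM (SD, n = 3 each). The summed level of the list was much the same, 64.3 to 67.2 FPKM with the overexpression label and 63.4 to 78.1 FPKM with the control label.

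Of the genes that extend and cap these chains 9 were tested (16 listed). Of these 2 were higher (37.5% of all genes), 4 lower (39.3%) and 3 did not pass, with a median of -0.15. With FPKM recomputed on the sum of the reads 4 were higher and 4 lower, and rescaled to TPM the split was the same with 12 tested and the median was 0.18. The higher call of C1GALT1, which makes the commonest chain core (log2 fold change 0.19, limma adjusted p = 0.034), was lost without any 1 library other than control-labelled replicate 3 (adjusted p = 0.0614 to 0.112). GCNT3, a branching enzyme of mucin-producing tissues, had 8 against 2173 reads and fell 291-fold. It reached the level for testing only through the control-labelled group, so its direction was fixed by the filter. The sialyltransferase genes ST6GALNAC4 and ST3GAL1 fell 4.95-fold and 2.89-fold. C1GALT1C1, the chaperone of that enzyme, measured 20.5 ± 0.52 FPKM against 8.68 ± 1.2 FPKM (SD, n = 3 each) and was 2.36-fold higher.

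**Figure D4:**
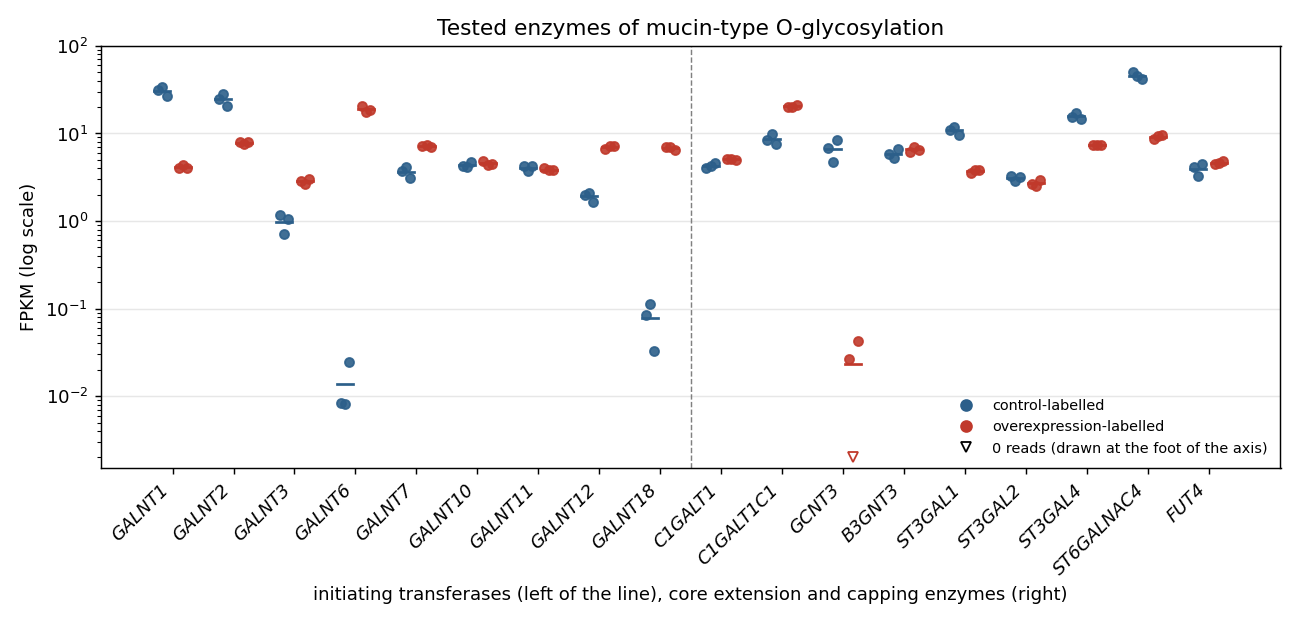
FPKM on a log scale of the 18 tested enzymes of mucin-type O-glycosylation, 1 point per library and a bar at the group mean, with initiating transferases left of the dashed line. GALNT6 and GALNT18 are near 0 with the control label and at several FPKM in the others, while GALNT1, GALNT2, GCNT3 and ST6GALNAC4 are lower in red.

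Partners and shedding enzymes of membrane mucins moved in both directions. All 11 listed were tested. Of these 6 were higher (37.5% of all genes), 4 lower (39.3%) and 1 did not pass, with a median of 0.43. With FPKM recomputed on the sum of the reads 3 were lower, the call of the kinase gene SRC (limma adjusted p = 0.045) being lost (adjusted p = 0.117). It was also lost with no filter (adjusted p = 0.0848) and without any 1 library other than control-labelled replicate 2 (adjusted p = 0.0791 to 0.132). Mesothelin (MSLN), the surface protein that binds MUC16, fell with it, from 101, 106 and 97.3 FPKM to 11.2, 11.4 and 11.7 FPKM, 8.89-fold (limma adjusted p = 3.99e-08). MMP14, a membrane metalloproteinase that can shed MUC1, rose, with 6399 against 9 reads. Its direction was fixed by the filter, since it reached the level for testing only through the overexpression-labelled group. ERBB3, a receptor that forms dimers with the MUC4 partner ERBB2, rose 6.11-fold, and CTNNB1, which binds the tail of MUC1, was the most abundant of the list under the overexpression label, at 77.7 ± 1.5 against 20.8 ± 1.7 FPKM (SD, n = 3 each).

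Of 11 tested genes of mucin granule release (13 listed), 2 were higher, 4 lower and 5 did not pass, with a median of -0.15. With FPKM recomputed on the sum of the reads 2 were lower, the calls of UNC13D and MARCKS being lost (adjusted p = 0.378 and 0.094). The UNC13D call was also lost without any 1 of the overexpression-labelled libraries (adjusted p = 0.0535 to 0.0944). RAB3D, a GTPase of secretory granules, fell 6.72-fold, and VAMP8, a vesicle fusion protein, rose from 25.9 ± 2.0 to 78.1 ± 3.1 FPKM (SD, n = 3 each). RAB3D reached the level for testing only through the control-labelled group, so its direction was fixed by the filter. MARCKS, which helps granules reach the membrane, measured 7.64, 8.49 and 8.58 FPKM against 13.4, 17.4 and 8.81 FPKM, and its call (limma adjusted p = 0.045) was lost in 8 of the alternatives, among them the removal of any 1 library other than control-labelled replicate 3.

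Among 14 other mucin and mucin-like genes, 4 were tested. Of these 1 was higher (37.5% of all genes) and 3 lower (39.3%), with a median of -1.60. The surface glycoproteins PODXL and MCAM fell 4.46-fold and 3.06-fold, MCAM being the most abundant of the list under the control label, at 66.8 ± 8.1 FPKM (SD, n = 3). OVGP1, an oviduct glycoprotein, fell 11.97-fold, whereas the endolysosomal sialomucin CD164 rose from 17.9 ± 0.35 to 23.2 ± 0.22 FPKM (SD, n = 3 each). OVGP1 averaged below 1 FPKM with the overexpression label and reached the level for testing only through the control-labelled group. Its direction was thus fixed by the filter. MUC21 and EMCN had 0 reads in all 6 libraries.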

How the data were processed

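The authors deposited 1 table of FPKM per gene for the 6 libraries, beside gene length. Its name and values gave the unit, and it held 0 further columns of per-sample values. RNA came from a column kit and libraries from a SMARTer mRNA kit, per the labels' protocols. The sources used here name no aligner, counter or strand handling. The build is mm10 per the submitters' processing notes, but all 58735 genes agreed in identifier, symbol, start and end with the human GENCODE release 29 annotation, so coordinates are GRCh38.

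FPKM times gene length, over the lowest nonzero product of its library, gave whole reads (within 0.001) for 100% of values. The main test was limma 3.58.1 (R 4.3.3) applied two-sided to log2(FPKM + 1) with a trend in the variance. It took genes averaging 1 FPKM or more, with Benjamini-Hochberg adjustment over all genes and a threshold of 0.05. This scale understates changes of low genes, so folds are ratios of mean FPKM. Low members were read from voom, an alternative, on the reads with trimmed-mean scaling. Of these fits the main test alone was run on simulated reads, for genes averaging 1 FPKM or more. The voom fit and low genes were not tested in that way. Promoter windows came from RefSeq (GRCh38.p14) and repeats from GENCODE transcripts. All 10 members are named; of each list, up to 3 genes past the threshold by size of change and the most abundant gene in each group could be named, and the neighbours are the nearest protein-coding genes. Further genes (ATOH1, genes at 0 reads, UNC13D, GALNT2, C1GALT1, SRC, GATA6, HNF4G and KRT20) were named after their values were seen. So were TP63, KRT14, KRT6A, DSG3, TFF2, TFF3, REP15, FCGBP, BEST2, ZG16, GALNT3 and FOXA3. The members and lists were chosen with earlier results of these data known.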

Additional observations from a re-analysis of the deposited data

How the results depend on the processing

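Besides the main settings, other pseudocounts, filters, scalings, a fit without the trend, voom, a replicate block and the removal of each library were tried. MUC13 and MUC1 stayed lower and past the threshold in all 15 alternatives, with log2 fold changes of -4.26 to -4.03 and -3.33 to -2.29. The 6 low members with more than a few reads kept their direction under 3 scalings and the removal of each library. No mucin was higher and 2 were lower in the limma fit (all genes: 37.5% higher, 39.3% lower). With no filter 1 was higher and 5 lower of 10 (all genes: 24.0% and 20.5%), and with voom 1 and 7 of 9 (all genes: 36.8% and 31.8%). Rescaled to TPM, 4 were lower of 4, with no share over all genes at hand. The members added by TPM were low with the overexpression label and entered through the control-labelled group, so their direction was fixed by the filter. MUC5AC and MUC12 were tested with no filter and with voom and called only by voom, and the cause was not tested. Removing any 1 library left 0 higher and 2 lower. With voom, removing a library (chosen after seeing the data) left 1 higher and 6 to 7 lower, MUC12 being the member lost. Of 57 tested genes of the further lists 21 were higher and 24 lower (all genes: 37.5% and 39.3%). Some of them entered only through the group where they were high, so their direction was fixed by the filter. The counts were 33 and 24 of 98 tested with no filter, 11 and 18 of 34 with a mean of at least 5 FPKM, and 36 and 29 of 84 with voom. For the filter at 5 FPKM no share over all genes is at hand. Replicate numbers are shared by the groups but did not pair the libraries: same-numbered libraries had correlations of deviations of -0.0059, -0.022 and 0.0075. With the replicate block 0 mucins were higher and 2 lower, as without it, and 20 genes of the further lists were higher and 22 lower of 57. With it the calls of C1GALT1, SRC and UNC13D were lost (adjusted p = 0.082, 0.0601 and 0.0573). The depth limits MUC2 and MUC17, with at most 5 reads in a group.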
